A study of Danio rerio with 10 samples.

Results

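The comparison described here set the nuclear RNA of fn10a mutant zebrafish embryos against that of their siblings, using 2 of the 10 libraries of the series, 1 for each group. Both came from embryos of the TL strain at 36 hours post fertilization (hpf), from crosses of fn10a heterozygotes. The mutant library was fn10a-/-, and the sibling library pooled fn10a+/- and +/+ embryos, so that its embryos include carriers of the allele. Nuclear RNA was separated from cytoplasmic RNA with the PARIS kit, and unstranded libraries were made of polyadenylated RNA, per the labels. The labels give 30 embryos for each whole-embryo library and no number for the fractions, and nothing says that the fractions of a genotype came from separate clutches. The remaining libraries were the cytoplasmic fractions of the same genotypes (1 each) and strand-specific whole-embryo libraries of mutants, siblings and wild-type TL controls (2 each). With 1 library a group no test of the nuclear difference was possible, and the values below compare these libraries.

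The labels name the allele only. From knowledge of the study, fn10a is a mutation of eftud2, whose protein is a GTPase in the U5 small nuclear ribonucleoprotein (snRNP). In the spliceosome this protein acts with the scaffold Prpf8 and the helicase Snrnp200 during activation and disassembly. A nuclear fraction holds RNA being transcribed, spliced and prepared for export, and the ratio between the nuclear levels of a transcript in a pair of samples therefore joins synthesis, processing, decay and export. Spliceosome and ribosome defects are known to set off a stress response in zebrafish embryos that includes genes of growth arrest and apoptosis.

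The mutant nuclear library stood apart from the other fractions. It held 7164408 reads on the listed transcript records against 14141991 in sibling nuclei, 17696776 in sibling cytoplasm and 19195327 in mutant cytoplasm. These were 19.2% of the authors' read total in mutant nuclei, 33.5% in sibling nuclei, and 41.7% and 41.8% in the cytoplasm libraries of siblings and mutants; the remaining reads were not analysed here. RPKM (reads divided by transcript length and by the read total) was scaled to that total. The median ratio of RPKM + 1, mutant over sibling, was 0.55 in nuclei (log2 -0.86) and 1.02 in cytoplasm (log2 0.02). The median ratio of reads was 0.396 in nuclei and 1.104 in cytoplasm. The part of the read total in the lower nuclear median was not tested. All nuclear differences are therefore given as log2((RPKM mutant + 1)/(RPKM sibling + 1)) minus its median over the 7744 genes whose mean RPKM over both nuclear libraries was 1 or more. The SD of this relative log2 over genes was 0.73 in nuclei, 0.43 in cytoplasm, and 0.39 and 0.42 in the pair of whole-embryo replicates. The pseudocount of 1 was added before the median was subtracted, which draws low genes toward a relative log2 of 0.86. Counting error is given as the exact 95% Clopper-Pearson interval of the ratio of reads, set relative to the median read ratio and without a pseudocount. Reads and RPKM + 1 are thus centred on separate medians, and the interval need not hold the RPKM value, for high genes as well as low ones. It covers counting error only, not the spread between embryos or preparations.

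The separation into fractions was borne out only in part. Of a list of 21 noncoding RNAs known to stay in the nucleus or to host small nucleolar RNAs, 1 was among the listed records, rn7sk. It was not higher in sibling nuclei (2.21 RPKM, 30 reads) than in sibling cytoplasm (3.22 RPKM, 44 reads), against its fraction label, and in mutants it stood at 44.7 and 7.85 RPKM. Messages for proteins of the cytoplasmic ribosome, 79 genes, had a median log2 ratio of nucleus to cytoplasm 0.36 below that of the median of 8946 genes in siblings (relative log2 -0.36), and above that of the median of 8079 genes in mutants (relative log2 0.22), so that the mutant pair goes against the order seen in siblings. The part of an incomplete separation in the nuclear differences was not tested.

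The transcript of eftud2 (chromosome 3, 16009001 to 16033616, minus strand, danRer7) had a nuclear level of 16.5 RPKM in siblings and 6.83 in mutants (2340 and 854 reads). In cytoplasm it stood at 18.9 and 7.21 RPKM. The whole-embryo values were 30.2 and 10.5 RPKM for wild-type TL, 28.1 and 9.91 for siblings and 11.3 and 3.6 for mutants. It was thus lower in mutants in each fraction as deposited. Relative to the median gene, the difference was -0.30 in nuclei (counting interval -0.23 to -0.01), -1.30 in cytoplasm and -1.15 and -1.28 in whole embryos.

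Of the 7744 genes, 635 were 2-fold or more higher in mutant nuclei relative to the median gene and are called gained (8.2% of genes tested), and 492 were 2-fold or more lower and are called lost (6.35%). The same limit took 1.42% and 1.46% of 9087 genes in the cytoplasm. In whole embryos it took 1.31% and 1.08% in replicate 1 and 1.8% and 1.27% in replicate 2. Between the 2 replicates of a single whole-embryo group, whose files also differ in format, it took 8.87% of genes either way in siblings, 7.23% in mutants and 15.5% in controls, against 14.6% between the nuclei. The share in the nuclei thus lay above those of the sibling and mutant pairs and below that of the control pair. The nuclear files share a format, so these pairs do not measure the spread between nuclear preparations. The median sibling and mutant levels were 4.05 and 7.31 RPKM among gained genes and 8.52 and 0.851 RPKM among lost genes. They were 5.09 and 2.23 over all genes tested. With the pseudocount, genes of low sibling level could not be called lost, even without mutant reads. In the lowest quintile by mean nuclear RPKM, 6.33% of genes were gained and 0.581% lost. The higher sibling level of lost genes is therefore partly set by the method. As deposited, 860 genes (11.1%) had more RPKM in mutant nuclei, among them, by the way they were chosen, all gained genes. On the deposited scale, without the shift to the median gene, 107 genes were 2-fold higher and 3229 were 2-fold lower. With the mutant values rescaled to the median gene before the pseudocount was added, 871 genes lay 2-fold above and 948 below, so that 47.9% of the genes past the limit were higher, in place of 56.3%; 623 of the 635 gained genes and 455 of the 492 lost genes were among these. The counting interval, on its own centre, lay on the same side of no change for all 635 and all 492, and beyond 2-fold for 620 and 429. For well-expressed genes it sits higher than the relative log2, as for rps26l (1.05, interval 1.31 to 1.38). The 620 therefore cannot show that gained genes lie beyond 2-fold on the scale of the relative log2. Among lost genes the interval lay nearer to no change for col2a1a (-2.80, interval -2.62 to -2.52) and farther for hapln1a (-3.34, interval -5.39 to -3.96). At the limit, eapp (1.00001) lay just inside and atp5j (0.99984) just outside on the gained side, and draxin (-1.00045) and ppp1r14ba (-0.999621) on the lost side; 125 gained and 101 lost genes lay within 0.1 log2 units of it.

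**Figure D1:**
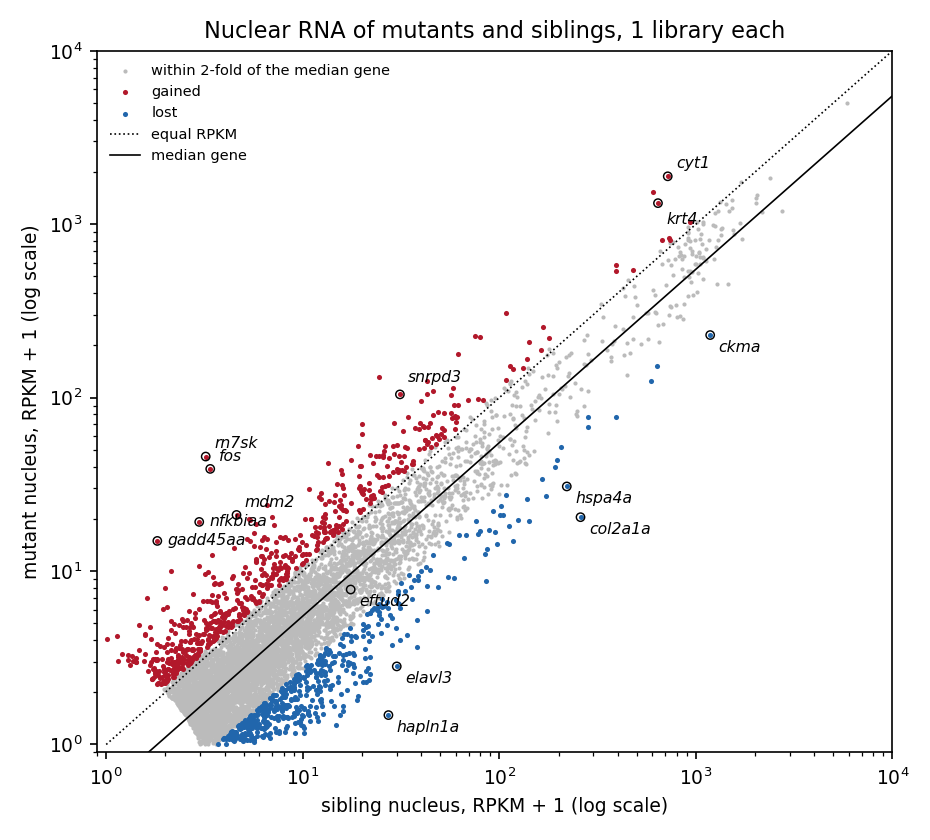
RPKM + 1 in sibling nuclei (horizontal, log scale) and mutant nuclei (vertical, log scale) for the 7744 genes tested, 1 library each. The solid line is the median gene, whose ratio of RPKM + 1 was 0.55. The 635 gained genes (red) lie 2-fold or more above it and the 492 lost genes (blue) 2-fold or more below it.

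Genes of growth arrest, apoptosis and the damage response were among those with the largest gains, and most of them were also higher in the cytoplasm. The stress gene gadd45aa, which acts in growth arrest, went from 0.820 RPKM in the nuclei of siblings to 13.9 in those of mutants (42 and 630 reads; relative log2 3.90, counting interval 4.79 to 5.73). In cytoplasm it stood at 1.55 and 8.01 RPKM. mdm2, which encodes a ubiquitin ligase, stood at 3.6 and 20.1 RPKM in nuclei (290 and 1427 reads; relative log2 3.06, interval 3.45 to 3.82) and at 5.67 and 33.7 in cytoplasm. For both genes the mutant library was the higher one in each fraction. phlda3, an inhibitor of Akt signalling, had relative log2 values of 3.09 in nuclei and 1.84 in cytoplasm. The initiator caspase gene casp8 went from 0.620 to 5.96 RPKM in nuclei (relative log2 2.96), and the proapoptotic gene bbc3 (puma) from 0.139 to 3.22 (relative log2 2.75). In sibling nuclei casp8, bbc3 and gadd45aa lay below 1 RPKM. They passed the filter on the mean only through the mutant library, in which they are high. The gained share given next includes them. Of 21 tested genes of this list, 8 were gained (38.1%, against 8.2% of all genes tested) and 0 lost. Their median relative log2 was 0.48 in nuclei and 0.27 in cytoplasm, against 0 and -0.02 for all genes tested in nuclei. Of the 8 gained, 7 were 2-fold higher in cytoplasm too; the exception was plk3, a Polo-like kinase gene, at 1.33 in nuclei and 0.27 in cytoplasm. ccng1, a cyclin gene of the damage response, was 2-fold higher in cytoplasm (1.25) and stood at -0.72 in nuclei, from 268 to 88.9 RPKM. The list median was -0.07 when no filter was set on RPKM and -0.38 on the deposited scale.

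Immediate early genes, which cells transcribe within minutes of a stimulus, formed another gained group, and most of its gained members were within 1.5-fold of no difference in cytoplasm. The transcription factor gene fos, now named fosab (chromosome 20, 46803310 to 46805421, minus strand), had 2.38 RPKM in the sibling nuclear library and 37.8 in the mutant one (169 and 2370 reads; relative log2 4.38, interval 4.92 to 5.38). It stood at 3.46 and 11.6 RPKM in cytoplasm. In whole embryos its values were 16.3 and 10.2 RPKM in controls, 1.89 and 0.451 in siblings and 29.2 and 6.44 in mutants. The mutant was thus higher than its siblings in every pair of libraries, while both control values lay between the 2 mutant values. atf3, a stress transcription factor gene, stood at 1.95 and 9.65 RPKM in nuclei and 2.39 and 2.67 in cytoplasm, relative log2 values of 2.71 and 0.09. junba and junbb, which encode partners of Fos, had relative log2 values of 2.29 and 2.15 in nuclei and 0.76 and 0.54 in cytoplasm. The gained members further included jun (1.09), the Myc gene mycb (1.40), the matrix signal gene ctgfa (1.43), socs3b, which restrains cytokine signalling (1.05), and fosl2, ier5l and klf2b (1.76, 1.18 and 1.52). In all, 11 of 19 tested members were gained (57.9%, against 8.2% of all genes tested) and 0 lost. The list median was 1.09 in nuclei and 0.27 in cytoplasm. Of the 11, 7 were within 1.5-fold of the median gene in cytoplasm, and 1, fos, was 2-fold higher there. A further gene with this profile was nfkbiaa, for an inhibitor of NF-kappaB, at 1.97 and 18.2 RPKM in nuclei (108 and 880 reads; relative log2 3.55) and 5.89 and 6.39 in cytoplasm (relative log2 0.08). hbegfa, for a ligand of the EGF receptor, stood at 2.56 in nuclei and 0.36 in cytoplasm.

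**Figure D2:**
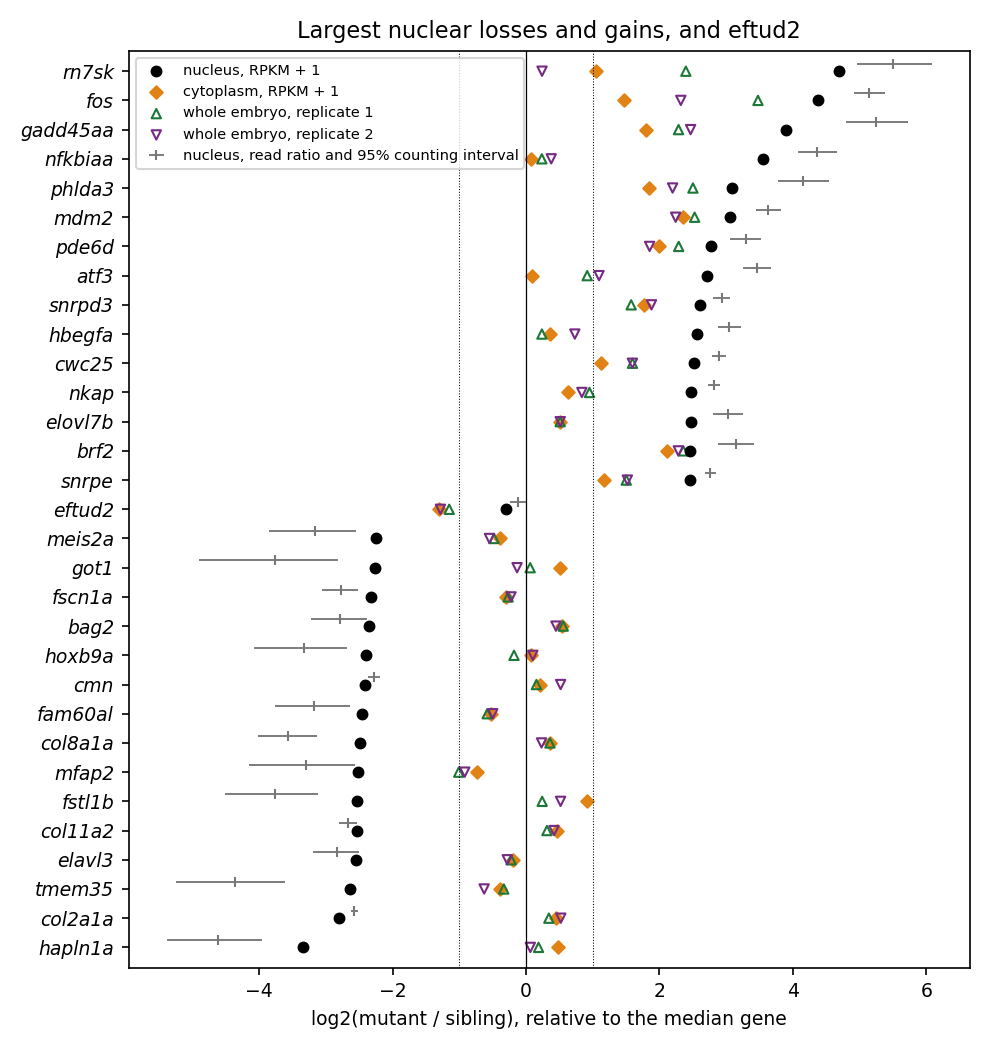
Relative log2 of mutant over sibling for the 15 genes with the largest nuclear gains, the 15 with the largest losses, and eftud2, in nuclei (black), cytoplasm (orange) and whole-embryo replicates 1 and 2 (open triangles); grey crosses and bars are the nuclear read ratio with its 95% counting interval. rn7sk (4.70) and fos (4.38) lead the gains and hapln1a (-3.34) the losses, and for nfkbiaa (0.08) and atf3 (0.09) the cytoplasm lies near 0; among the losses it runs from -0.73 (mfap2) to 0.92 (fstl1b).

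Among genes for spliceosome components, those for the small ring proteins that coat the spliceosomal RNAs were gained most often. Of 11 tested Sm and LSm genes 10 were gained (90.9%, against 8.2% of all genes tested) and 0 lost. The list median was 1.71 in nuclei and 0.61 in cytoplasm. snrpd3 stood at 30.2 and 103 RPKM in nuclei (724 and 2189 reads; relative log2 2.60, interval 2.81 to 3.05). snrpe and snrpf had relative log2 values of 2.46 and 2.41, and lsm7 2.39; these 4 were also 2-fold higher in cytoplasm, by 1.76, 1.17, 1.27 and 1.78. The member that was not gained was lsm1 (0.09), whose protein belongs to the cytoplasmic ring of mRNA decay. Of the 12 genes of U4/U6 and the tri-snRNP, which delivers U5 to the spliceosome, 6 were gained and 0 lost. The share gained was 50%, against 8.2% of all genes tested. The median of these genes was 1.03 in nuclei and 1.06 in cytoplasm. snrnp27 led them, at 28.3 and 70.7 RPKM (relative log2 2.16). prpf31 stood at 13.5 and 21.1 RPKM in nuclei and 17.9 and 75.9 in cytoplasm, relative log2 values of 1.47 and 2.0, and prpf3 at 1.1 and 2.25. Among these 3, the nuclear value was the larger one for snrnp27 only.

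Of the genes for partners of the eftud2 product in U5, prpf8 and snrnp200 stood lower in nuclei than in cytoplasm on the relative scale. prpf8 had 20.5 and 12.7 RPKM in nuclei, a relative log2 of 0.21 against 1.27 in cytoplasm. snrnp200 had 18.3 and 17.2 RPKM in nuclei, a relative log2 of 0.77 against 1.74. Of the 8 genes of the U5 list, 2 were gained: prpf6 (1.59), for the tri-snRNP bridging protein, and the helicase gene ddx23 (1.16); the median was 0.34, and -0.53 on the deposited scale. prpf6, cd2bp2 and txnl4a stood higher in nuclei than in cytoplasm (1.59 against 1.14, 0.47 against -0.15 and 0.19 against 0.06). Of 18 genes of U2 and its partner U2AF, 5 were gained, among them phf5a (1.86) and sf3a2 (1.71), and 1 was lost, u2af2a, which encodes the large U2AF subunit (-1.07 in nuclei and 0.56 in cytoplasm). Their median was 0.53, and -0.33 on the deposited scale. Of the 7 U1 genes 2 were gained, luc7l and luc7l3 (1.13 and 1.04), with a median of 0.58, and -0.28 on the deposited scale. The other processing lists had fewer members past 2-fold. Of 20 genes of the Prp19 complex and spliceosome remodelling, 2 were gained (crnkl1 and dhx16, 1.65 and 1.84), and of 19 SR genes 1 (srrm2, 1.93). Of 14 genes of nonsense-mediated decay and the exon junction complex, magoh and eif4a3 were gained (1.29 and 1.25) and smg5 lost (-1.03); eif4a3 overlaps another listed record. Of 19 export genes 1 was gained and 1 lost. Of 15 genes of 3' end processing 2 were gained, and of 14 exosome genes 1 was lost. Shares gained were 25% for U5, 27.8% for U2 and 28.6% for U1, against 8.2% of all genes tested. They were 14.3% for the decay list, 13.3% for 3' end processing, 10% for Prp19, and 5.26% for SR and export genes. The lost shares of U2 (5.56%), export (5.26%), decay and exosome genes (7.14% each) were near the 6.35% of all genes tested.

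Some of the genes that make the spliceosomal RNAs were gained too. Of 15 tested genes of snRNA transcription and maturation 7 were gained (46.7%, against 8.2% of all genes tested) and 0 lost. The list median was 0.69 in nuclei, 0.19 in cytoplasm and -0.17 on the deposited scale. brf2, for the initiation factor with which RNA polymerase III transcribes U6 and 7SK, stood at 2.17 and 8.61 RPKM in nuclei (142 and 497 reads; relative log2 2.46) and 1.86 and 11.5 in cytoplasm. snapc4, of the complex that opens snRNA promoters, stood at 2.44, and mettl16, for the methyltransferase of U6, at 2.33. kiaa0947l, an older name of ice1, which encodes the scaffold of the little elongation complex, stood at 2.69, and toe1, for a nuclease that trims snRNA ends, at 1.93; these 5 were 2-fold higher in cytoplasm as well. coil, for the Cajal body protein coilin, and the elongation factor gene ell2 were gained in nuclei (1.34 and 1.14) and stood at 0.01 and 0.32 in cytoplasm. None of the 10 Integrator genes, whose complex cuts snRNA ends, passed 2-fold (median -0.12 in nuclei, -0.61 in cytoplasm).

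The gene with the largest relative gain of all those named was rn7sk, the RNA of the 7SK particle, which holds back the elongation kinase P-TEFb. It is made by RNA polymerase III and is not known to carry a poly(A) tail, so its reads in libraries of polyadenylated RNA may not measure its amount. Its nuclear level was 2.21 RPKM in siblings and 44.7 in mutants (30 and 537 reads; relative log2 4.70, interval 4.97 to 6.08), and stood at 3.22 and 7.85 RPKM in cytoplasm. In whole embryos it stood at 2.67 and 0.830 RPKM in controls, 1.87 and 9.02 in siblings and 13.2 and 11.2 in mutants. The mutant nuclei thus held the highest value of all 10 libraries, while the whole-embryo replicates differed from each other, with a relative log2 of 2.4 in replicate 1 and 0.24 in replicate 2. Of the 7 tested genes for 7SK proteins and P-TEFb subunits, 1 was gained, the cyclin gene ccnt2a (1.40), and 0 were lost. The share gained was 14.3%, against 8.2% of all genes tested, and rests on 1 gene. The list median was -0.12 in nuclei and -0.55 in cytoplasm. Within the list hexim1, for the inhibitor that 7SK carries, stood at -0.94 in nuclei.

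Among the tissue lists, that of the epidermis had most gained members. The keratin gene cyt1 had 718 RPKM in the nuclei of siblings and 1887 in those of mutants (41655 and 96742 reads; relative log2 2.26, interval 2.53 to 2.57), and stood at 3226 and 4330.4 in cytoplasm. Its neighbour cyt1l had a relative log2 of 2.2, and the periderm keratin gene krt4 went from 640.1 to 1322 RPKM (1.91). Keratin genes resemble each other in sequence, and reads may be divided between them. anxa1c, for an annexin, stood at 2.12, and the claudin genes cldnb and cldne at 1.48 and 1.49. Of 24 tested members 15 were gained (62.5%, against 8.2% of all genes tested) and 0 lost. The list median was 1.39 in nuclei and 0.34 in cytoplasm, where 0 passed 2-fold. The list's summed nuclear level was 2627 RPKM in siblings and 5476 in mutants, a ratio of 2.08, and 12409 and 16593 RPKM in cytoplasm, a ratio of 1.34. The members below the median gene in nuclei were krt18 and krt8, keratin genes of simple epithelia, and agr2, at -0.98, -0.26 and -0.10. In bulk samples a different number of cells of a type and a different amount of RNA per cell cannot be told apart. The part of the higher epidermal level in the other nuclear differences was not tested.

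Among the other tissue lists, that of the yolk syncytial layer also leaned upward in nuclei, with all 14 tested genes above the median gene and 8 of 14 in cytoplasm (list median 0.06). Of the 14 genes 3 were gained (21.4%, against 8.2% of all genes tested), tfa, serpina1 and serpina1l (1.07, 1.23 and 1.22). The list had a median of 0.80 (-0.06 on the deposited scale) and a summed level of 868 RPKM in sibling and 692 in mutant nuclei. None of the 15 erythroid genes passed 2-fold (median 0.04; summed level 1070.2 and 520.2 RPKM). Of 8 myeloid genes 1 was gained (12.5%), cebpb (1.84), with a list median of -0.03. Of 51 muscle genes 6 were gained (11.8%), among them the cardiac genes tnnt2a and myl7 (1.55 and 1.41). A further 3 were lost (5.88%), among them the creatine kinase gene ckma (from 1181 to 228 RPKM, -1.50). The median was 0.04, and the shares were near those of all genes tested (8.2% gained, 6.35% lost). The muscle list had a summed nuclear level of 33284 RPKM in siblings and 19987 in mutants.

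Some lists of housekeeping genes leaned upward in mutant nuclei, mostly by less than 2-fold. Of 79 genes for proteins of the cytoplasmic ribosome 65 lay above the median gene in nuclei and 6 in cytoplasm. Their median was 0.41 in nuclei and -0.17 in cytoplasm, with 3 gained (rplp2, rps26l and rpl22, 1.06, 1.05 and 1.0) and 0 lost. The nuclear median was -0.02 with a pseudocount of 5 and -0.46 on the deposited scale, so its direction rests on the scaling. Of 73 nuclear-encoded genes of the respiratory chain 9 were gained and 0 lost (median 0.61 in nuclei, 0.00 in cytoplasm, -0.25 as deposited), led by cox7c (166 and 255 RPKM, 1.47). Of 61 genes of the mitochondrial ribosome 7 were gained and 0 lost (median 0.65, 0.01 in cytoplasm, -0.21 as deposited); mrps33, the highest at 2.43, was also 2-fold higher in cytoplasm. Of 59 ribosome biogenesis genes 7 were gained and 1 was lost, with a median of 0.36, and -0.50 as deposited. Those gained included dkc1 for dyskerin (33.5 and 76.4 RPKM, 2.03 in nuclei and -0.02 in cytoplasm) and nop58 (1.63 and 0.10). The shares gained were 12.3% for the respiratory chain, 11.5% for the mitochondrial ribosome and 11.9% for ribosome biogenesis, against 8.2% of all genes tested. For the cytoplasmic ribosome the share gained was 3.8%, below that of all genes tested.

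Genes of the extracellular matrix held the top places among the losses, and in the cytoplasm nearly all members of the list lay above the median gene. hapln1a, for a link protein between hyaluronan and proteoglycans (chromosome 5, 48105482 to 48116645, minus strand), went from 26.3 RPKM in sibling to 0.478 in mutant nuclei (1121 and 18 reads; relative log2 -3.34, interval -5.39 to -3.96). In cytoplasm it stood at 13.1 and 18.9 RPKM, and in whole embryos at 40.2 and 18.7 RPKM in siblings and 43.0 and 20.1 in mutants. Its level was thus lowest in mutant nuclei among these libraries. The cartilage and notochord collagen gene col2a1a (chromosome 8, 21733547 to 21756525, plus strand) stood at 258 and 19.4 RPKM in nuclei (52892 and 3525 reads; relative log2 -2.80, interval -2.62 to -2.52) and at 135 and 188 in cytoplasm. Its direction was opposite in nuclei and cytoplasm, and the many reads made its counting interval narrow. col11a2 and col8a1a, for further fibrillar and short-chain collagens, stood at -2.54 and -2.49 in nuclei and 0.47 and 0.36 in cytoplasm. tnc, for tenascin C, and fbn2b, for a fibrillin, stood at -1.93 and -1.75. The laminin gene lamc1 stood at -1.32 in nuclei and 1.03 in cytoplasm. Of 32 tested members 12 were lost (37.5%, against 6.35% of all genes tested) and 0 gained. The list median was -0.75 in nuclei and 0.43 in cytoplasm. Of the members, 29 lay below the median gene in nuclei and 29 above it in cytoplasm. The summed level was 1657 RPKM in sibling and 467 in mutant nuclei, and 1784 and 2157 in cytoplasm. The collagen genes of bone and skin were lower by less, with col1a1a at -0.36 and col1a2 at -0.56. Other genes of secreted or matrix proteins among the largest losses were cmn, for calymmin of the zebrafish notochord sheath (from 84.1 to 7.77 RPKM, -2.42), mfap2, for a microfibril protein (-2.52), and fstl1b, for a follistatin-like protein (-2.53 in nuclei and 0.92 in cytoplasm). Of 16 notochord and floor plate genes, 2 were lost (12.5%, against 6.35% of all genes tested), col8a1a and spon1b (-1.15). The median of the notochord and floor plate list was -0.18.

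Some neuronal genes were lost in nuclei, a minority of the list. elavl3, which encodes an RNA-binding protein of new neurons, went from 29.1 RPKM in sibling to 1.82 in mutant nuclei (1374 and 76 reads; relative log2 -2.55, interval -3.19 to -2.51), and stood at 21.4 and 18.8 in cytoplasm. dpysl2b, for an axon guidance mediator, stood at -2.15 in nuclei and -0.72 in cytoplasm, and the vesicle fusion gene stxbp1a at -1.64 in nuclei and 0.40 in cytoplasm. Of 26 tested neuronal genes 6 were lost (23.1%, against 6.35% of all genes tested) and 0 gained. Of the 26, 9 lay above the median gene (list median -0.27 in nuclei and -0.11 in cytoplasm). Within the list elavl4, of the same family as elavl3, stood at 0.87. A list of neuronal adhesion and synapse genes known for long introns had a median genomic span of 139892 bases. Of its 28 tested genes 11 were lost (39.3%) and 0 gained (median -0.48 in nuclei and -0.06 in cytoplasm). ncam1a, whose record spans 408650 bases, stood at 10.6 and 0.524 RPKM in nuclei (-2.07) and 7.42 and 6.67 in cytoplasm (-0.16). lrrn1, for a leucine-rich repeat membrane protein, was lower in both fractions (-2.10 and -1.89), as was gpm6bb, for a myelin proteolipid family member (-1.91 and -1.19). Of 38 neural progenitor and Notch genes 5 were lost (13.2%), among them notch3 and the glial filament gene gfap (-1.82 and -1.53). A further 3 were gained (7.89%), among them the Notch-responsive repressors her9 and her6 (1.58 and 1.56). The median was -0.20, and the share gained was near the 8.2% of all genes tested (6.35% lost). Of 19 neural crest and pigment genes 4 were lost (21.1%) and 0 gained (median -0.42): sox9a, tyr, dct and sox9b, at -1.38, -1.35, -1.29 and -1.27. In cytoplasm these 4 stood at -0.10, 0.50, -0.49 and -0.52.

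Lens crystallin genes were lower in both fractions. Of 29 tested members 13 were lost (44.8%, against 6.35% of all genes tested) and 0 gained in nuclei (median -0.89). Of the 13, 12 were 2-fold lower in cytoplasm too (list median -1.26). cryba4 stood at 137 and 24.9 RPKM in nuclei and 199 and 58.5 in cytoplasm (-1.56 and -1.77), and crybb1l2 at -2.13 and -1.11. The whole-embryo replicates disagreed about this list, with medians of -1.12 in replicate 1 and 1.33 in replicate 2. Many gamma crystallins are near copies of each other, so their single values are uncertain.

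A few chaperone genes were lost in mutant nuclei, and some of these stood higher in cytoplasm. hspa4a, for an exchange factor of Hsp70, stood at 219 and 29.8 RPKM in nuclei (29826 and 3574 reads; relative log2 -1.98) and at 26.5 and 33.1 in cytoplasm (0.29). bag3, for a co-chaperone of protein quality control, stood at 16.4 and 1.96 RPKM in nuclei and 2.11 and 6.33 in cytoplasm, relative log2 values of -1.69 and 1.21. As deposited, both genes were thus higher in nuclei than in cytoplasm in the siblings, and lower in nuclei than in cytoplasm in the mutants. The median log2 ratio of nucleus to cytoplasm over all genes was itself -0.205 in siblings and -1.093 in mutants. A lower value in nuclei than in cytoplasm was therefore also that of the median gene in mutants. For hspa4a the mutant nuclei lay below the cytoplasm by less than for the median gene. Its 219 RPKM in sibling nuclei stood against 16.3 and 7.62 in whole siblings. hspb8, the partner of Bag3, and the co-chaperone gene chordc1a stood at -1.28 and -1.59 in nuclei and 0.86 and 0.51 in cytoplasm, and bag2, outside the list, at -2.35 and 0.53. Of 26 tested members 5 were lost (19.2%, against 6.35% of all genes tested). A single member, serpinh1b of collagen folding, was gained (1.07), 3.85% of the list against 8.2% of all genes. Of the 26, 9 lay above the median gene. The list median was -0.22 in nuclei (-0.02 with the values rescaled before the pseudocount), 0.32 in cytoplasm and 0.47 and 0.58 in whole embryos. The fraction libraries stood apart from the whole embryos of the same genotypes in heat-inducible chaperone genes. hsp70 had 522 and 204 RPKM in sibling and mutant nuclei and 109 and 69.5 in cytoplasm, against 3.70 and 1.46 in whole siblings and 8.03 and 6.69 in whole mutants. The controls differed from each other, at 5.52 RPKM in replicate 1 and 2498 in replicate 2. Its sibling value was thus the higher one in both fractions, and its part in the differences between the nuclei was not tested. Of 21 genes of the integrated stress and unfolded protein responses 4 were lost (19.0%), among them the sensor gene atf6 (-2.26). A further 2 were gained (9.52%, near the share of all genes), among them ddit4 (1.60).

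The rest of the lists held few members past the limit. Shares lost were 18.2% for histones, 14.3% for the nuclear pore, 6.12% for the cell cycle, 4.44% for the proteasome and 3.92% for solute carriers. Shares gained were 7.14% for znf genes, 3.92% for solute carriers, 2.22% for the proteasome and 2.04% for the cell cycle. Of 11 histone genes that give polyadenylated messages 2 were lost, the linker histone genes h1fx and h1f0 (-1.86 and -1.23), with a median of -0.44. Of 49 cell cycle genes 3 were lost (mki67, ccna2 and ttk, -1.27, -1.26 and -1.11) and 1 was gained, the cyclin gene ccnd1 (from 44.8 to 109 RPKM, 2.12); the median was -0.31. Of 41 Hox genes 4 were lost and 3 gained (median -0.20), with hoxb9a lowest at -2.4 and hoxb6a highest at 1.55, which overlaps another Hox record. These were 9.76% lost and 7.32% gained, against 6.35% and 8.2% of all genes tested. Of 21 nuclear pore genes 3 were lost (median 0.00), of 45 proteasome genes 2 were lost and 1 gained (median 0.09), of 102 solute carriers 4 were lost and 4 gained (median -0.09), and of 28 genes named znf 2 were gained (median -0.01).

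**Figure D3:**
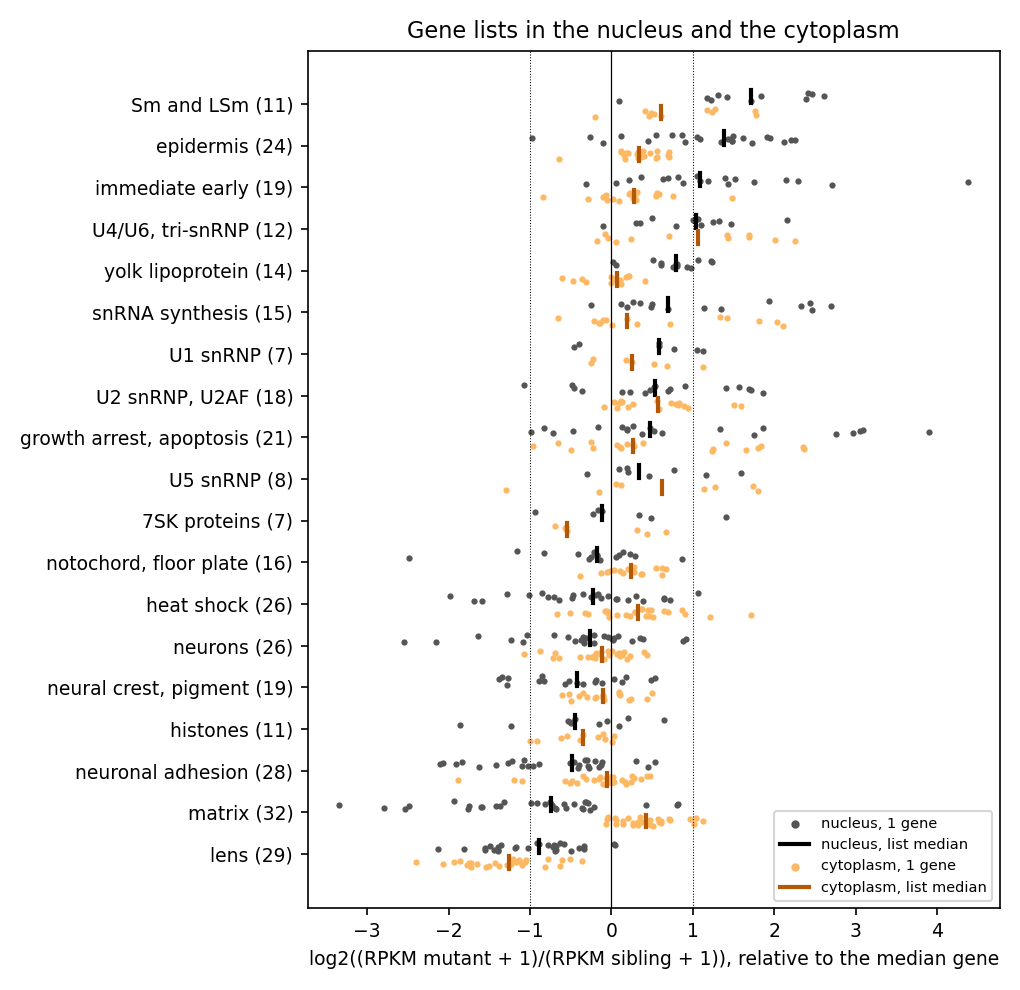
Relative log2 of mutant over sibling for the tested members of 19 gene lists (number of members in brackets) in nuclei (dark points, black bar at the median) and cytoplasm (light points, brown bar), with dotted lines at 2-fold. The medians of Sm and LSm genes (1.71), epidermis (1.39) and immediate early genes (1.09) stand highest in nuclei, and those of matrix (-0.75) and lens genes (-0.89) lowest; for matrix the cytoplasm median lies on the other side (0.43).

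Gained genes had shorter genomic spans than the median gene, and lost genes longer ones. Genomic span, the distance from the start to the end of the record with introns included, had a median of 8054 bases in gained genes and 18771 in lost genes, against 13282.5 over all genes tested. At the filter of 1 RPKM the length of the spliced transcript differed less, with medians of 1493, 1803.5 and 1839 bases. fos, junba and cyt1, with spans of 2112, 1530 and 2033 bases, were among the short gained genes, while col11a2 and fstl1b spanned 43831 and 103013. The size of a gene did not fix its direction: mettl16, with a span of 54446 bases, was gained, and mfap2, with 2740, was lost. Over quintiles of the genes by span, the median relative log2 in nuclei went from 0.19 in the shortest quintile (median span 3255 bases) through 0.14, -0.04 and -0.11 to -0.17 in the longest (56108 bases). The share gained went from 14.3% to 4.78%, and the share lost from 5.42% to 9.81%. Cytoplasm went the other way over the same quintiles, from -0.13 to 0.04. By transcript length the quintiles had nuclear medians of 0.24, 0.02, -0.05, -0.12 and -0.07. Over the 7744 genes Spearman's rho of the nuclear relative log2 was -0.19 with span and -0.14 with transcript length, and in cytoplasm 0.13 and 0.14 over 7657 genes; these describe genes of the same libraries, which are not replicates. The quartiles within each quintile, such as -0.29 to 0.69 in the shortest by span, were wider than the differences between quintiles.

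Span and transcript length go together. With transcript length held, the nuclear median fell with span in every tertile by length. With span held, only the shortest tertile by transcript length stood apart, above the others. Among genes in the shortest tertile by transcript length, the nuclear median was 0.23 in the shortest tertile by span (1592 genes), 0.10 in the middle and -0.10 in the longest (315 genes). Among genes in the longest tertile by transcript length it was 0.08 (275 genes), -0.05 and -0.16 (1517 genes). Within the shortest tertile by span, the medians by transcript length were 0.23, 0.06 and 0.08. Within the middle tertile they were 0.10, -0.06 and -0.05, and within the longest -0.10, -0.18 and -0.16. Genes with no intron in the record, 167 of those tested, had a median of 0.17, and 16.2% of them were gained and 6.59% lost; with the values rescaled before the pseudocount their median was 0.00. They made up 27 of the gained genes (4.25%) and 11 of the lost (2.24%), against 2.16% of all. The shortest quintile by span also had higher levels, 5.93 RPKM in sibling nuclei against 4.09 in the longest. The part of the level in the relation was not tested beyond the filters given in the closing section. At a mean RPKM of 5 or more, the longest and shortest quintiles differed more by transcript length (-0.58) than by span (-0.44). At 10 or more the differences were -0.83 and -0.52. The tertiles were not repeated at these filters.

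**Figure D4:**
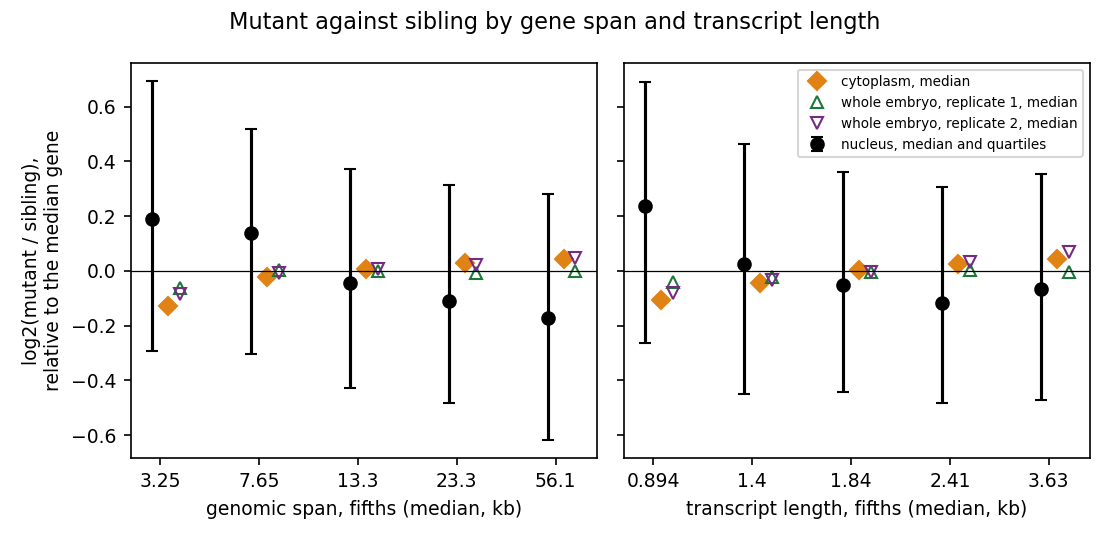
Median relative log2 of mutant over sibling in quintiles of the 7744 genes by genomic span (left) and transcript length (right), with the median of each quintile in kilobases on the horizontal axis; black points are nuclei with quartiles as bars, orange diamonds cytoplasm and triangles whole-embryo replicates. The nuclear median falls from 0.19 to -0.17 across span while the cytoplasm goes from -0.13 to 0.04, and the quartiles of neighbouring quintiles overlap.

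Most genes gained or lost in nuclei were not past 2-fold in the cytoplasm. Of 611 gained genes that could be compared there, 72 (11.8%) were also 2-fold higher, against 1.54% of all genes compared, and 0 were 2-fold lower; 449 lay within 1.5-fold of the median gene. The sign was the same for 475 (77.7%), against 48.1% of all genes. The 72 were 61.0% of the 118 genes 2-fold higher in cytoplasm. Of 491 lost genes compared, 39 (7.94%) were also 2-fold lower, against 1.65% of all, and 6 were 2-fold higher; 375 lay within 1.5-fold. The sign was the same for 53.4%, against 51.8% of all genes, and the 39 were 31.0% of the 126 genes 2-fold lower in cytoplasm. The lost genes as a group thus had nearly the sign distribution of all genes in cytoplasm, with a median of -0.05, while the gained genes had a median of 0.31. rtn2a, for a reticulon of the endoplasmic reticulum, was, after bag3, the lost gene among those named with the largest value in cytoplasm, 14.6 and 0.959 RPKM in nuclei (-2.13) and 9.15 and 21.7 in cytoplasm (1.14). On the gained side onecut1, for a transcription factor of liver and neurons, stood at 18.4 and 34.3 RPKM in nuclei (1.72) and 20.1 and 13.5 in cytoplasm (-0.57).

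The whole-embryo libraries, which were prepared separately and are strand-specific, give the same comparison of genotypes in other samples. Of 579 gained genes compared there, 434 (75%) had higher values in the mutants of both replicates, against 38.5% of all genes, and 72 (12.4%) were 2-fold higher in both, against 1.29%. Of 486 lost genes, 249 (51.2%) were lower in both, against 39.8% of all, and 15 (3.09%) were 2-fold lower in both, against 0.618%. The gained genes that were also 2-fold higher in cytoplasm had whole-embryo medians of 1.61 and 1.77, and 59 of 72 (81.9%) were 2-fold higher in both replicates. The 449 gained genes within 1.5-fold in cytoplasm had medians of 0.24 and 0.22, and 2 of 419 compared (0.477%) were 2-fold higher in both. A set of 34 lost genes was 1.5-fold or more higher in cytoplasm; of 33 compared, 32 were higher in whole mutant embryos in both replicates, with medians of 0.40 and 0.47. Gains seen in both fractions were thus the ones found at like size in whole embryos, and the losses with higher cytoplasm were found there with the sign of the cytoplasm.

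**Figure D5:**
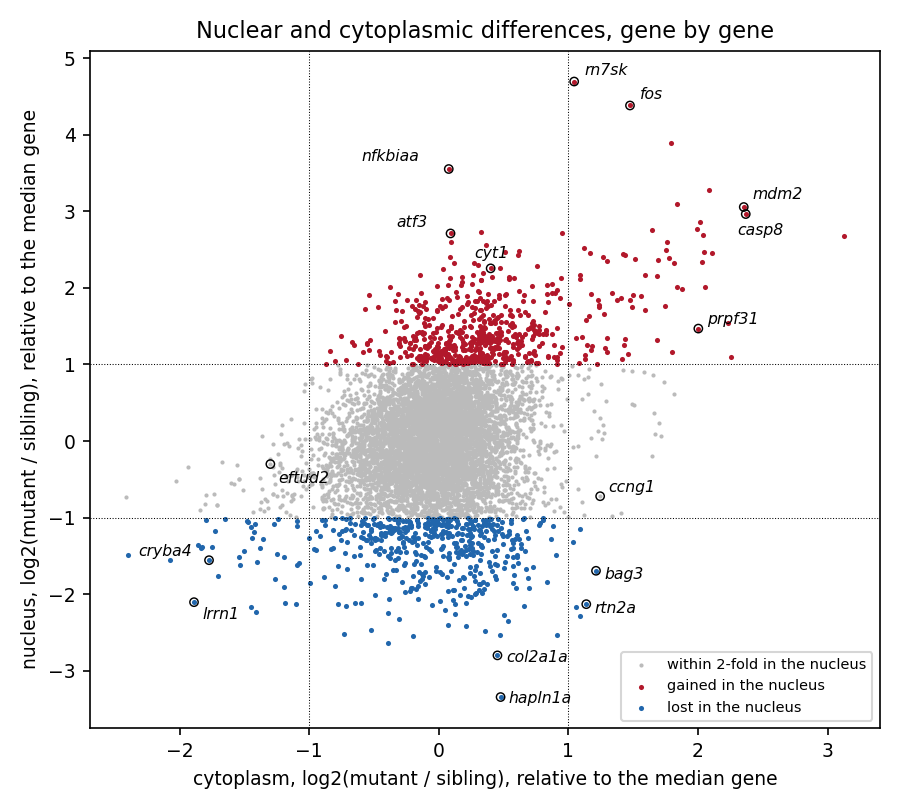
Relative log2 of mutant over sibling in cytoplasm (horizontal) and nuclei (vertical) for the genes compared in both, with dotted lines at 2-fold; red points are gained and blue points lost in nuclei. mdm2, casp8 and prpf31 lie high in both, nfkbiaa and atf3 in nuclei alone, lrrn1 and cryba4 low in both, and bag3 and rtn2a low in nuclei and high in cytoplasm.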

How the data were processed

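Of the 10 RNA-seq libraries of polyadenylated RNA, the 4 fraction libraries are unstranded, per the labels' protocols. Alignment used TopHat2 2.0.8 and the build danRer7, per the submitters' processing notes, and the sources used here do not give the counting tool. Each deposited file lists 15865 RefSeq records with their position and transcript length. The counts deposited by the authors are raw whole numbers. The authors' RPKM is scaled to a read total above the sum of the listed counts; the deposited transcript length was used as given.

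Of the records of each of 14563 gene symbols, the one with most reads in the 10 libraries together stands for the gene. The 7744 genes with a mean over the nuclear files of at least 1 RPKM were compared; 6819 fell below. Of those kept, 441 have several records, whose reads may be divided, and 7482 matched the supplied RefSeq gene table, used for current names. Without strand, reads of overlapping genes cannot be told apart. Groups come from titles and genotypes. No test was run on 1 library a group; intervals are exact Clopper-Pearson intervals at 95% (scipy 1.17.1) and cover counting error only. Cytoplasm and whole-embryo differences were computed the same way, each pair centred on its own median gene. edgeR 4.0.16 gave TMM factors for an alternative. Python 3.11.15, pandas 2.3.3 and R 4.3.3 were used, and the scripts were tested on simulated data. Alternatives were other pseudocounts, filters and scalings, all records, and thinned sibling reads.

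The comparison and the 42 gene lists were chosen with earlier results of these data known. Named genes are the 15 largest gains and losses with a mean RPKM of 5 or more, a counting interval beyond no change and no placeholder name, the 5 each way that differ most from cytoplasm, up to 4 gained or lost members per list, and eftud2. Not all of them are described above. Among the 15 losses tmem35, fam60al, fscn1a and meis2a (-2.64, -2.47, -2.32 and -2.25) belong to none of the lists. Further named genes such as pde6d, cwc25, nkap and elovl7b are not described either. Members named with values inside 2-fold, such as prpf8, snrnp200, ccng1, hexim1, lsm1, elavl4 and krt18, and further gained or lost members of a list, were chosen after their values were seen. Values of 2 genes are not reported here, and the gene lists leave them out. No sequence is printed.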

Additional observations from a re-analysis of the deposited data

Results flagged for a closer look

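From the lists and genes with opposite signs in nuclei and cytoplasm, 2 lists and 4 genes were picked. In each case 1 library a group was compared, and the difference between the fractions was not tested. Opposite signs were not confined to these. The chaperone list had medians of -0.22 in nuclei and 0.32 in cytoplasm, the notochord list -0.18 and 0.24, and the export list 0.29 and -0.13. hapln1a stood at -3.34 and 0.48. The 4 genes were 2-fold or more lower in nuclei and 1.5-fold or more higher in cytoplasm. The laminin gene lamc1, given above, also met these limits. The matrix list had a median relative log2 of -0.75 in nuclei and 0.43 in cytoplasm over 32 genes. The list of cytoplasmic ribosomal proteins had 0.41 and -0.17 over 79 genes. Among named genes lost in nuclei, fstl1b stood at -2.53 in nuclei and 0.92 in cytoplasm, and rtn2a at -2.13 and 1.14. The co-chaperone genes bag3 and hspb8, whose proteins form a complex, stood at -1.69 and -1.28 in nuclei and 1.21 and 0.86 in cytoplasm.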

How the results depend on the processing

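Counts of gained and lost genes and the differences in median relative log2 between the longest and shortest quintile by span and by transcript length are given in that order, and were 635, 492, -0.36 and -0.30. They were 1059, 1307, -0.59 and -0.54 with a pseudocount of 0.1, and 136, 191, -0.12 and -0.054 with 5. With a mean RPKM of 5 or more they were 294, 268, -0.44 and -0.58, and without a filter 345, 1339, -0.60 and -0.55. Rescaled before the pseudocount, 948 genes were lost and the differences were -0.51 and -0.50; with TMM factors these were 971, -0.51 and -0.50. As deposited, 107 were gained and 3229 lost. At a mean RPKM of 10 or more, chosen after seeing the data, the differences were -0.52 and -0.83. All records and thinning of the sibling reads to the mutant depth moved no count past 1.5 times. A counting interval beyond no change, asked for as well, moved no count either, but it is centred apart from the relative log2.

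Of 41 list medians 10 changed sign with a pseudocount of 5, 10 without a filter and 18 as deposited. Only those picked by an interval over the list members are named next. The members are genes of the same libraries, not replicates, so that interval does not measure how certain a direction is. The remaining sign changes are not listed here. Those whose 95% interval over the members lay on 1 side of 0 and that changed sign were those of ribosomal proteins with a pseudocount of 5 (-0.019), of growth arrest and apoptosis genes (-0.070) and ribosome biogenesis (-0.033) without a filter, and, as deposited, of growth arrest and apoptosis genes (-0.38), U2 (-0.33), snRNA synthesis (-0.17), yolk (-0.064), ribosome biogenesis (-0.50), ribosomal proteins (-0.46), respiratory chain (-0.25) and mitochondrial ribosome (-0.21). The 142 named genes kept their sign in every setting in which they were compared. All of them but eftud2 were chosen 2-fold or more from the median gene, which left little room for a change of sign. On the deposited scale, which leaves out the median log2 of -0.86, the sign was fixed by that choice. Of gained genes, 83.4% had the same sign in whole embryos on the mean of the replicates (79.45% to 86.36% leaving 1 out), and of lost genes 64.8% (54.73% to 70.16%). No paired analysis was possible because the nuclear libraries are 1 a group and carry no replicate number. Depth limits low genes most: got1 and exosc1 rest on 9 and 2 reads in mutant nuclei.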

Other observations

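Gene families grouped by the stem of their symbol after the values were seen gave some further values. The clustered and related protocadherin genes (stem pcdh), which encode adhesion proteins of neurons, had 6 of 55 tested members gained and 0 lost, with a median relative log2 of 0.47 in nuclei and -0.20 in cytoplasm; the share gained is near that of all genes tested (8.2% gained, 6.35% lost). Clustered protocadherins share exons between records, so their reads may be divided. RNA polymerase subunit genes (polr) had 5 of 23 gained and 0 lost, with medians of 0.52 and 0.19. Genes of respiratory complex I with the stem ndufa had 3 of 13 gained and 0 lost, with medians of 0.74 and -0.02.

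For the stems that follow, the shares over all genes tested were 8.2% gained and 6.35% lost. Collagen genes with the stem col had 8 of 17 lost and 0 gained, with medians of -0.74 in nuclei and 0.36 in cytoplasm. Sox transcription factor genes had 4 of 19 lost and 0 gained, with medians of -0.38 and -0.32. Hes-related repressor genes (her) had 3 of 11 gained and 1 lost, with medians of -0.05 in nuclei and -0.86 in cytoplasm.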
